A study of Mus musculus with 28 samples.

Results

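The coded ligands C108 and C118 of the glucocorticoid receptor, here called the modulators, were pooled and set against the receptor antagonist RU486 (mifepristone) in the dorsal hippocampus of mice after auditory fear conditioning. The comparison holds 15 of the 28 libraries of the series, chosen by their labels alone: 5 libraries of C108 (numbered 8, 21, 26, 34 and 39) and 5 of C118 (7, 13, 20, 33 and 38) on one side, and 5 of RU486 (6, 12, 19, 25 and 32) on the other. All came from male C57Bl6 mice that were conditioned, that is, trained with a tone and a shock. A further pair of conditioned groups gave the scale, Cort (n = 5, the usual abbreviation of corticosterone) and Vehicle (n = 4), and the Basal group (n = 4) had neither conditioning nor treatment. The labels name no mutant allele or transgene in any group. No source used here gives the doses, the times of dosing and dissection or the structures behind the code names, so doses could not be matched and C108, C118 and RU486 are compared as the groups were labelled. The labels do not say that each library came from a separate mouse, so p-values measure the spread between these libraries, which may be partly technical.

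The glucocorticoid receptor, encoded by Nr3c1, is a transcription factor that enters the nucleus when corticosterone binds it and switches on genes such as Fkbp5, Tsc22d3 and Per1. An antagonist occupies the same pocket without switching on these genes, and RU486 also blocks the progesterone receptor. A partial agonist or selective modulator switches on the targets weakly, or only some of them, and would leave target genes above the antagonist and below the full agonist. The hippocampus is rich in this receptor and in the mineralocorticoid receptor, and its glucocorticoid response is tied to the storage of fear memory.

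The start sites of 3 targets are shown because Fkbp5 and Cdkn1a were the 2 receptor targets that passed the test against Cort and Sgk1 was the only target whose window held the full palindrome that the receptor binds. Each window is the 250 bases before a RefSeq gene start (GRCm38.p6), read 5′ to 3′ on the gene's strand, with motif matches in capitals. Fkbp5 lies at chr17:28486150-28486399 (minus strand), Cdkn1a at chr17:29090729-29090978 (plus strand) and Sgk1 at chr10:21993640-21993889 (plus strand). For genes with several start sites the window with most matches was taken, which for Sgk1 was 1 of 6.
Fkbp5: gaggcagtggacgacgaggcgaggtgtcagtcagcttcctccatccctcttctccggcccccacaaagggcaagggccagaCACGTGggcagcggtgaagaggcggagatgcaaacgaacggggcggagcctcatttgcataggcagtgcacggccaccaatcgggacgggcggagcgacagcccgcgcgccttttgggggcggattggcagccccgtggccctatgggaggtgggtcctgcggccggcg
Cdkn1a: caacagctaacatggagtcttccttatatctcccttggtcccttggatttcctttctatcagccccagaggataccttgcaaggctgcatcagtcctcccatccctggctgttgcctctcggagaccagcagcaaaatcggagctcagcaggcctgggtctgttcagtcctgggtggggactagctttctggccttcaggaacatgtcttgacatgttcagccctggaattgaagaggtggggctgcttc
Sgk1: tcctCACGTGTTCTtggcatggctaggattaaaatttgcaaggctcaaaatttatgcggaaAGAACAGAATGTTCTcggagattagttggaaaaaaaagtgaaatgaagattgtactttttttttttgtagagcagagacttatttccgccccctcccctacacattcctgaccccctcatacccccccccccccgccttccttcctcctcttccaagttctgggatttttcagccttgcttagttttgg

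Of the 44 target genes listed for the receptor, 36 had a window. The palindrome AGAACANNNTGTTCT, searched on both strands, was in a window of 3 of 27025 RefSeq genes (0.0111%), any of a gene's windows counting, and among the targets in Sgk1 alone, from 189 to 175 bases before the start. Its half-site AGAACA, which the palindrome holds on both strands, was in 5 targets (13.9%) against 18.2% of all genes. The E-box CACGTG, bound by clock proteins, was in 8 targets (22.2%), Fkbp5 and Per1 among them, against 6.86% of all genes. The 36 targets had 52 windows and the 27025 genes 32851. In the Sgk1 window the E-box overlaps a half-site, and the Cdkn1a window held no match. A match in these letters is a description of the window and not a measured binding site.

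Gene counts per library ran from 16.24 to 20.3 M in the 15 libraries and from 19.02 to 20.03 M in Cort (M, 10 to the power of 6 counts), and 16735 genes had enough counts to be tested. The hippocampal markers Prox1 (126 to 206 CPM), Wfs1 (168 to 270 CPM), Neurod6 (233 to 340 CPM) and Zbtb20 (187 to 501 CPM) were high in every one of the 15 libraries. CPM is counts per 10 to the power of 6 on adjusted library totals. This shows hippocampus in each dissection and not the absence of neighbouring tissue. The thalamus marker score (mean of the centred log2 CPM) was 0.471 and 0.247 in RU486 25 and 32. It was -0.553 to -0.376 in RU486 6, 12 and 19 and -0.697 to 0.016 in the modulators. RU486 libraries 6 and 25 stood apart through choroid plexus genes, and C118 libraries 20 and 38 through interferon-stimulated genes. Results in these gene groups are given with and without them where both were computed.

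C108 and C118 together could not be separated from RU486 at any single gene. The quasi-likelihood test of edgeR, which weighted each compound equally, called 0 of 16735 genes (0% of all genes tested), with a smallest adjusted p of 0.33. At an unadjusted p under 0.05 there were 559 genes, 190 higher (1.14% of all genes tested) and 369 lower (2.2%) than in RU486, and DESeq2 and limma-voom also called 0. The precision was enough to bound most differences: the 95% interval lay within 1 log2 unit of no change for 15745 genes (94.1%) and within 0.5 log2 units for 12400 genes (74.1%). Complete separation was rare. All 10 modulator libraries lay above all 5 RU486 libraries for 2 genes (0.012%), Zfp92, a zinc finger gene (3.16 to 4.05 against 2.77 to 3.08 CPM), and Arfgap3, an activator of Golgi GTPases (16.8 to 20.3 against 15.9 to 16.7 CPM). They lay below all 5 for 1 gene (0.00598%), Tmem86a (10.8 to 12.6 against 12.7 to 14.1 CPM). These 3 genes were named after their values were seen.

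**Figure D1:**
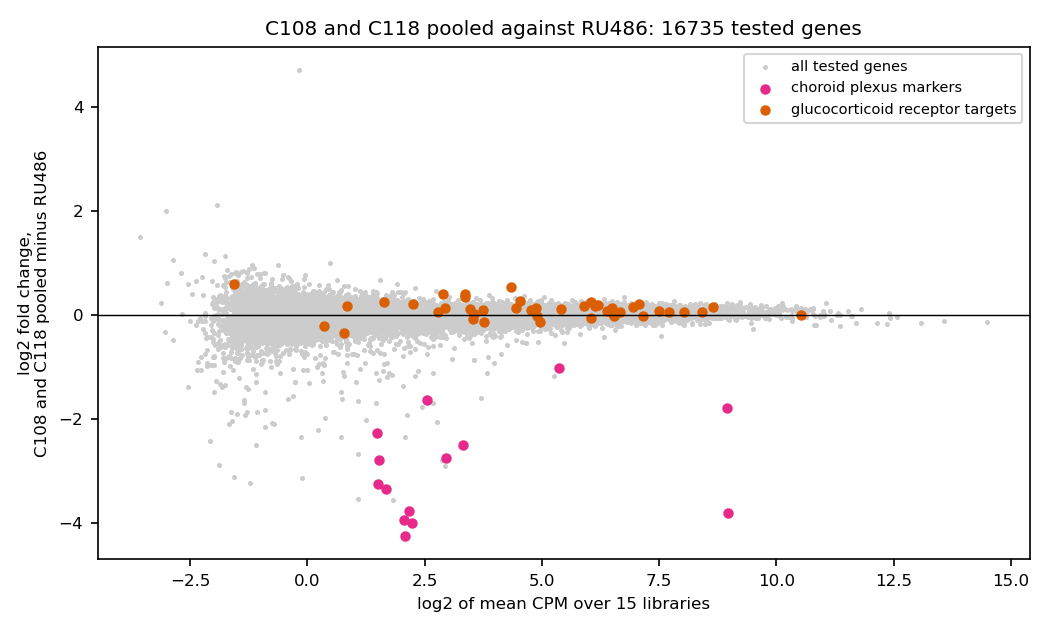
Each point is a tested gene, with the log2 of its mean CPM over the 15 libraries on the x axis and the log2 fold change of C108 and C118 pooled minus RU486 on the y axis. The receptor targets (orange) lie close to 0, between -0.36 and 0.61, and the choroid plexus markers (pink) lie between -4.25 and -1.02.

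The targets of the receptor had slightly higher means under the modulators than under RU486, and none passed the test. Of 44 listed targets, all 44 were tested, 0 were called, and 34 (77.3%) had a higher mean in the pooled modulators, against 50.2% of all genes. The median log2 difference was 0.105 for the targets and 0.0005 for all genes. The target list was written with earlier results of these data known, so these shares describe the list and do not test it. At an unadjusted p under 0.05, 4 targets were higher, Zbtb16, Cebpd, Cdkn1a and Fkbp5, and 0 were lower, where 1.14% of all genes were higher at that p. The 95% interval lay within 1 log2 unit of no change for 41 of the 44 targets and within 0.5 for 32, so a response of more than a doubling over RU486 was outside the interval for those 41.

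Fkbp5 encodes a cochaperone that lowers the receptor's affinity for hormone and is its classic induced gene in brain (chromosome 17, 28399094 to 28517527, GRCm38). It stood at 101, 119, 122, 113 and 113 CPM in RU486 libraries 6, 12, 19, 25 and 32, at 133, 120, 134, 119 and 150 CPM in C108 libraries 8, 21, 26, 34 and 39, and at 111, 110, 113, 132 and 146 CPM in C118 libraries 7, 13, 20, 33 and 38. Of the 10 modulator libraries 5 lay above the highest RU486 library, 3 of C108 and 2 of C118, and the other 5 overlapped the antagonist. The log2 difference from RU486 was 0.16 ± 0.08 (SE, edgeR adjusted p = 0.998). The 5 Cort libraries stood at 159, 159, 162, 180 and 175 CPM, above all 10 modulator libraries.

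Cdkn1a encodes p21, which halts the cell cycle (chromosome 17, 29090976 to 29100727), and varied widely among the C108 libraries. It stood at 16, 17.1, 21, 8.75 and 14.5 CPM in RU486, at 38.9, 33.8, 17.5, 8.88 and 25.4 CPM in C108 and at 21.8, 22.5, 18.5, 21.9 and 18.3 CPM in C118, in the same library order. C108 libraries 8, 21 and 39 were high and C108 34 lay at the level of the lowest RU486 library, while the C118 libraries lay close together. The log2 difference of the pooled modulators from RU486 was 0.55 ± 0.25 (SE, edgeR adjusted p = 0.998). In Cort the gene stood at 80.7, 49.5, 46.8, 55.4 and 41.9 CPM, again above all 10 modulator libraries.

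Zbtb16 encodes the zinc finger repressor PLZF (chromosome 9, 48654297 to 48836222) and had the smallest p of the targets. The RU486 libraries stood at 65.6, 60, 45.6, 59.2 and 62.6 CPM, the C108 libraries at 78.3, 68.6, 71, 60 and 75.7 CPM and the C118 libraries at 76.3, 60.7, 67.8, 69.4 and 73.7 CPM. Of the 10 modulator libraries 8 exceeded the highest RU486 library, 4 of each compound, and C108 34 and C118 13 did not. The log2 difference was 0.26 ± 0.08 (SE, edgeR adjusted p = 0.957), and the Cort libraries ranged from 75.1 to 95.4 CPM. Cebpd, a transcription factor of inflammatory and glucocorticoid responses that was picked out after its values were seen, stood at 5.46 to 6.81 CPM in RU486 (n = 5) and 5.92 to 10.1 CPM in the modulators (n = 10, median 8.16), with 8 of 10 above the antagonist's range. Its log2 difference was 0.41 ± 0.15 (SE, edgeR adjusted p = 0.998), and its Cort libraries (7.81 to 10 CPM) lay within the range of the modulators. For counts such as 8 of 10 libraries above the RU486 range, the share of all genes that reach them was not computed.

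The other targets that the naming rule lists overlapped RU486. Tsc22d3 (chromosome X, 140539528 to 140600659), whose product GILZ dampens inflammation, stood at 78.1, 87.4, 101, 65.4 and 92.1 CPM in RU486 and from 74.7 to 111 CPM in the modulators (log2 difference 0.14 ± 0.13, SE). Plin4, a coat protein of lipid droplets, stood at 5.41 to 11.3 CPM against 7.56 to 17.1 CPM (0.40 ± 0.24, SE), and the hypoxia-inducible factor gene Hif3a at 6.07 to 11.2 against 7.94 to 14.9 CPM (0.34 ± 0.22, SE). For Plin4 4 of 10 modulator libraries, and for Hif3a 5 of 10, lay above the highest RU486 library. Per1, a clock repressor that is also a direct target, ranged from 44.1 to 67.5 CPM in RU486 and from 53.2 to 69.2 CPM in the modulators (0.17 ± 0.10, SE).

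Sgk1, a kinase that regulates ion channels and the target with the palindrome in its window, did not differ beyond the spread between libraries. It ranged from 114 to 179 CPM in RU486, from 101 to 191 CPM in the modulators and from 128 to 191 CPM in Cort, so the 3 sets of libraries overlapped. The log2 difference from RU486 was -0.03 ± 0.18 (SE, 95% interval -0.39 to 0.34), and its sign turned under 6 of the alternatives in the closing section. Of the other targets, the metallothionein gene Mt2 had a log2 difference of 0.21 ± 0.17, the stress-induced mTOR inhibitor gene Ddit4 0.17 ± 0.12, the feedback inhibitor gene of the EGF receptor Errfi1 0.08 ± 0.10, the transcription factor gene Klf9 0.07 ± 0.08 and the metallothionein gene Mt1 0.06 ± 0.13 (SE each). Over all 44 the differences ran from -0.36 for Ccn2, a secreted matrix protein, to 0.61 for Lcn2, an iron-siderophore carrier, and both of these extremes, named after their values were seen, are genes of few counts with wide intervals (-1.09 to 0.38 and -0.42 to 1.63).

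**Figure D2:**
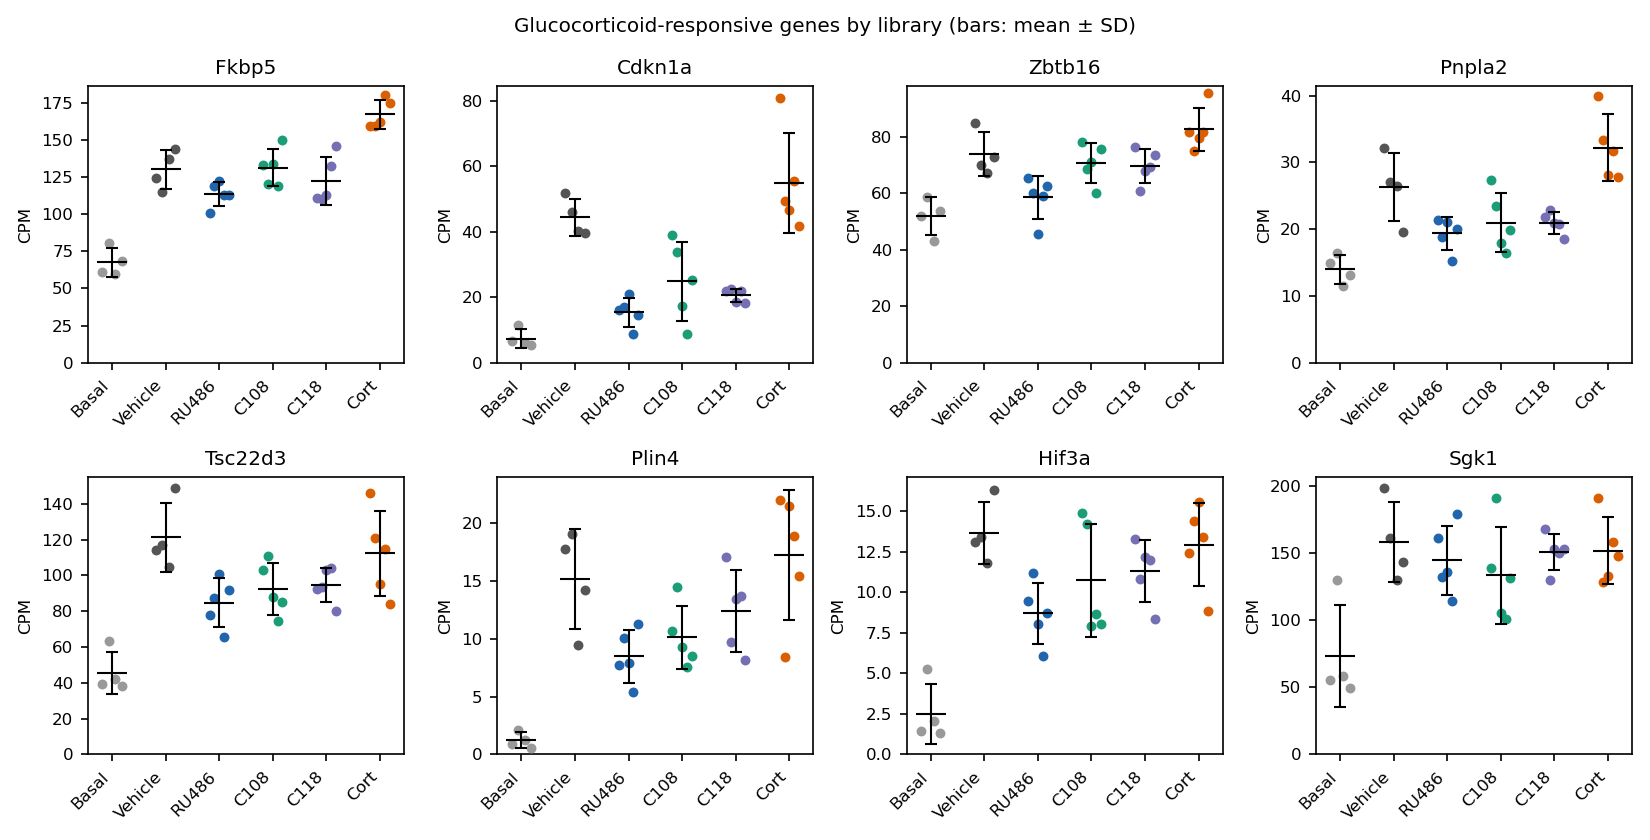
Each point is a library and the bars are the group mean ± SD, with CPM on the y axis (from 0) and the 6 groups on the x axis. Fkbp5, Cdkn1a and Pnpla2 of the C108 and C118 libraries lie below every Cort library, and for all 8 genes the C108 and C118 points overlap those of RU486.

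Averaged over the 44 targets, the libraries fell into an overlapping order. The target score of a library (mean log2 CPM of the members, each gene centred on all 28 libraries) was -0.055, -0.026, 0.044, -0.278 and -0.058 in RU486, 0.219, 0.213, -0.065, -0.185 and -0.091 in C108 and 0.048, 0.041, 0.133, 0.062 and -0.069 in C118. Of the modulator libraries 5 lay above the highest RU486 library and 0 below the lowest. The spread within C108 (SD 0.186) was wider than within C118 (SD 0.073), since C108 8 and 21 stood high and C108 26, 34 and 39 stood among the RU486 libraries. The mean difference between the pooled modulators and RU486 was 0.105 and was not tested. The SD of single libraries within groups was 0.135, which is not the uncertainty of a difference between means. With a block for the sets in which the sample numbers run, which no label names, the mean difference was 0.131. It was 0.109 without C118 20 and 38, 0.052 without RU486 25 and 0.045 without RU486 6 and 25.

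The Cort libraries had target scores of 0.471, 0.385, 0.275, 0.377 and 0.122, the Vehicle libraries 0.108 to 0.36 and the Basal libraries -0.811 to -0.34. All modulator and RU486 libraries therefore lay above the Basal libraries, and 7 of 10 modulator libraries lay below the lowest Cort library. C108 8, C108 21 and C118 20 were the 3 within the range of Cort.

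Other features varied along with the target score among the modulator libraries. The score of the 13 mitochondrially encoded genes was 0.369 and 0.515 in C108 8 and 21 and -0.441, -0.406 and -0.957 in C108 26, 34 and 39, and in C118 it was -1.027 in library 38, the lowest in target score, and 0.182 to 0.486 in the others. The score of endothelial markers was 0.274 and -0.041 in C108 8 and 21 and -1.172 to -0.318 in the other 3 C108 libraries. In C118 it was 0.231, 0.256 and 0.25 in libraries 7, 13 and 20, -0.596 in library 33, which had the second highest target score of the group, and -1.186 in library 38. Cort 36 was also low in both (-0.865 for mitochondrial genes and -0.686 for endothelial markers). The share of reads in the summary lines, which were not counted to a gene, was 19.5 and 18.9% in C108 8 and 21. It was 13.43 to 14.66% in the other C108 libraries, 12.63% in C118 38 and 16.97 to 18.9% in the other C118 libraries. The libraries lowest in target score in RU486 (25, 15.43%) and Cort (36, 13.82%) also had the lowest share of their group. In Vehicle the library lowest in target score, 23, had the highest share (19.46%). The part of these features in the target score was not tested. In bulk tissue, fewer cells of a type and less RNA per cell cannot be told apart.

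**Figure D3:**
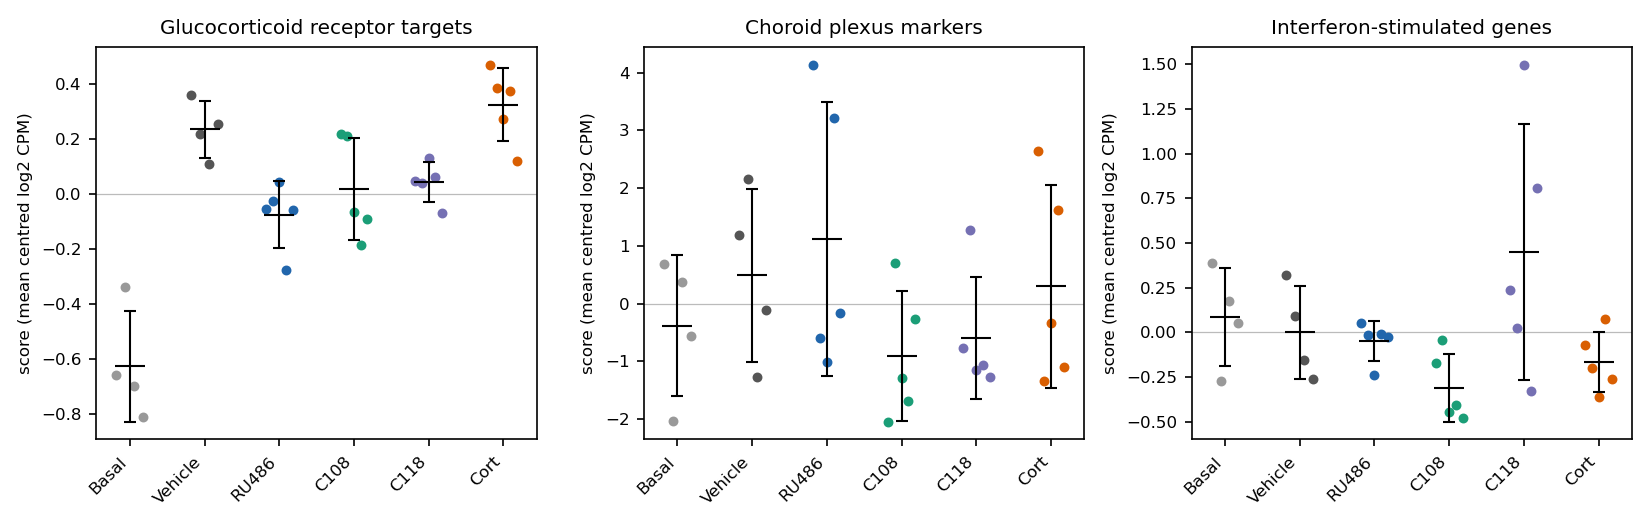
List scores by library (points) with the group mean ± SD (bars), each score being the mean log2 CPM of the listed genes after centring each gene on all 28 libraries. The target scores of C108 and C118 overlap RU486, RU486 6 and 25 stand high in choroid plexus markers (4.133 and 3.215), and C118 20 and 38 stand high in interferon-stimulated genes (1.496 and 0.807).

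Against the agonist the modulators lay lower, and here single genes passed. In the pooled modulators 8 genes were lower than in Cort (0.0478% of all genes tested) and 0 were higher (0%) by edgeR, while 887 genes had an unadjusted p under 0.05, 284 higher and 603 lower. Of the 44 receptor targets, Cdkn1a and Fkbp5 were lower by this test, 42 had a lower mean against 48.2% of all genes, and 16 were lower at an unadjusted p under 0.05, as were 3.6% of all genes, while 0 were higher (1.7% of all genes). Their median log2 difference was -0.224, and that of all genes was 0.0043. Here too the shares describe a list written with earlier results of these data known. This comparison shares its 10 modulator libraries with the one against RU486, so its values are set beside the other as a scale and not as separate support.

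Cdkn1a was lower than in Cort by a log2 difference of -1.28 ± 0.23 (SE, edgeR adjusted p = 0.0339) and Fkbp5 by -0.39 ± 0.08 (SE, edgeR adjusted p = 0.0431). Pnpla2, which encodes the lipase that starts the breakdown of stored triglyceride (chromosome 7, 141455198 to 141460743), stood at 40, 33.4, 28.1, 31.7 and 27.8 CPM in Cort, 16.4 to 27.3 CPM in the modulators (n = 10, median 20.8) and 15.3 to 21.4 CPM in RU486 (n = 5). All 10 modulator libraries lay below all 5 Cort libraries, which held for 21 genes in all (0.125%), and the log2 difference from Cort was -0.62 ± 0.11 (SE, edgeR adjusted p = 0.0339) while that from RU486 was 0.11 ± 0.12 (SE, adjusted p = 0.998). Slc25a13, the mitochondrial aspartate-glutamate carrier (chromosome 6, 6041218 to 6217173), was lower than in Cort by -0.72 ± 0.14, with 7 of 10 libraries below the Cort range. Ptgfrn, an inhibitor of prostaglandin F receptor binding (chromosome 3, 101040232 to 101110278), was lower by -0.52 ± 0.10 (SE), with 10 of 10 below (edgeR adjusted p = 0.0435 for both). The growth factor receptor regulator Lrig1 (-0.32 ± 0.06), the ciliary gene Dzip1l (-0.39 ± 0.07) and Wbp1l (-0.25 ± 0.05, SE each) completed the 8 and were named after their values were seen.

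These 8 calls depended on single libraries. The count was 0 without Cort 4, Cort 30, C108 26, C118 7, C118 13, C118 20 or C118 33, 1 without Cort 11, C108 34 or C118 38, 4 without C108 21 and 14 without C108 8, and 0 without both C118 20 and 38. With the block by set it was 23, 2 higher and 21 lower. Markers of other tissue moved with the comparison, in which 48.2% of all genes had a lower mean and 3.6% were lower at an unadjusted p under 0.05. Of 17 thalamus markers 17 had a lower mean in the modulators than in Cort (median log2 difference -0.956, 13 at an unadjusted p under 0.05), and their score (mean of the centred log2 CPM) was -0.697 to 0.016 in the modulators and -0.504, 0.028, 0.789, 0.977 and 1.063 in the Cort libraries. Of 14 choroid plexus markers 14 had a lower mean than in Cort (median -1.631, 3 at that p), of 16 endothelial markers 16 (median -0.194, 1 at that p), of 11 meningeal fibroblast markers 11 (median -0.553, 4 at that p) and of 6 blood genes 5 (median -0.544, 4 at that p). The part of the last 3 in the calls was not tested. With thalamus and neocortex scores in the model 0 genes were called, with 497 at an unadjusted p under 0.05, and the log2 differences were -1.15 for Cdkn1a and -0.47 for Fkbp5.

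**Figure D4:**
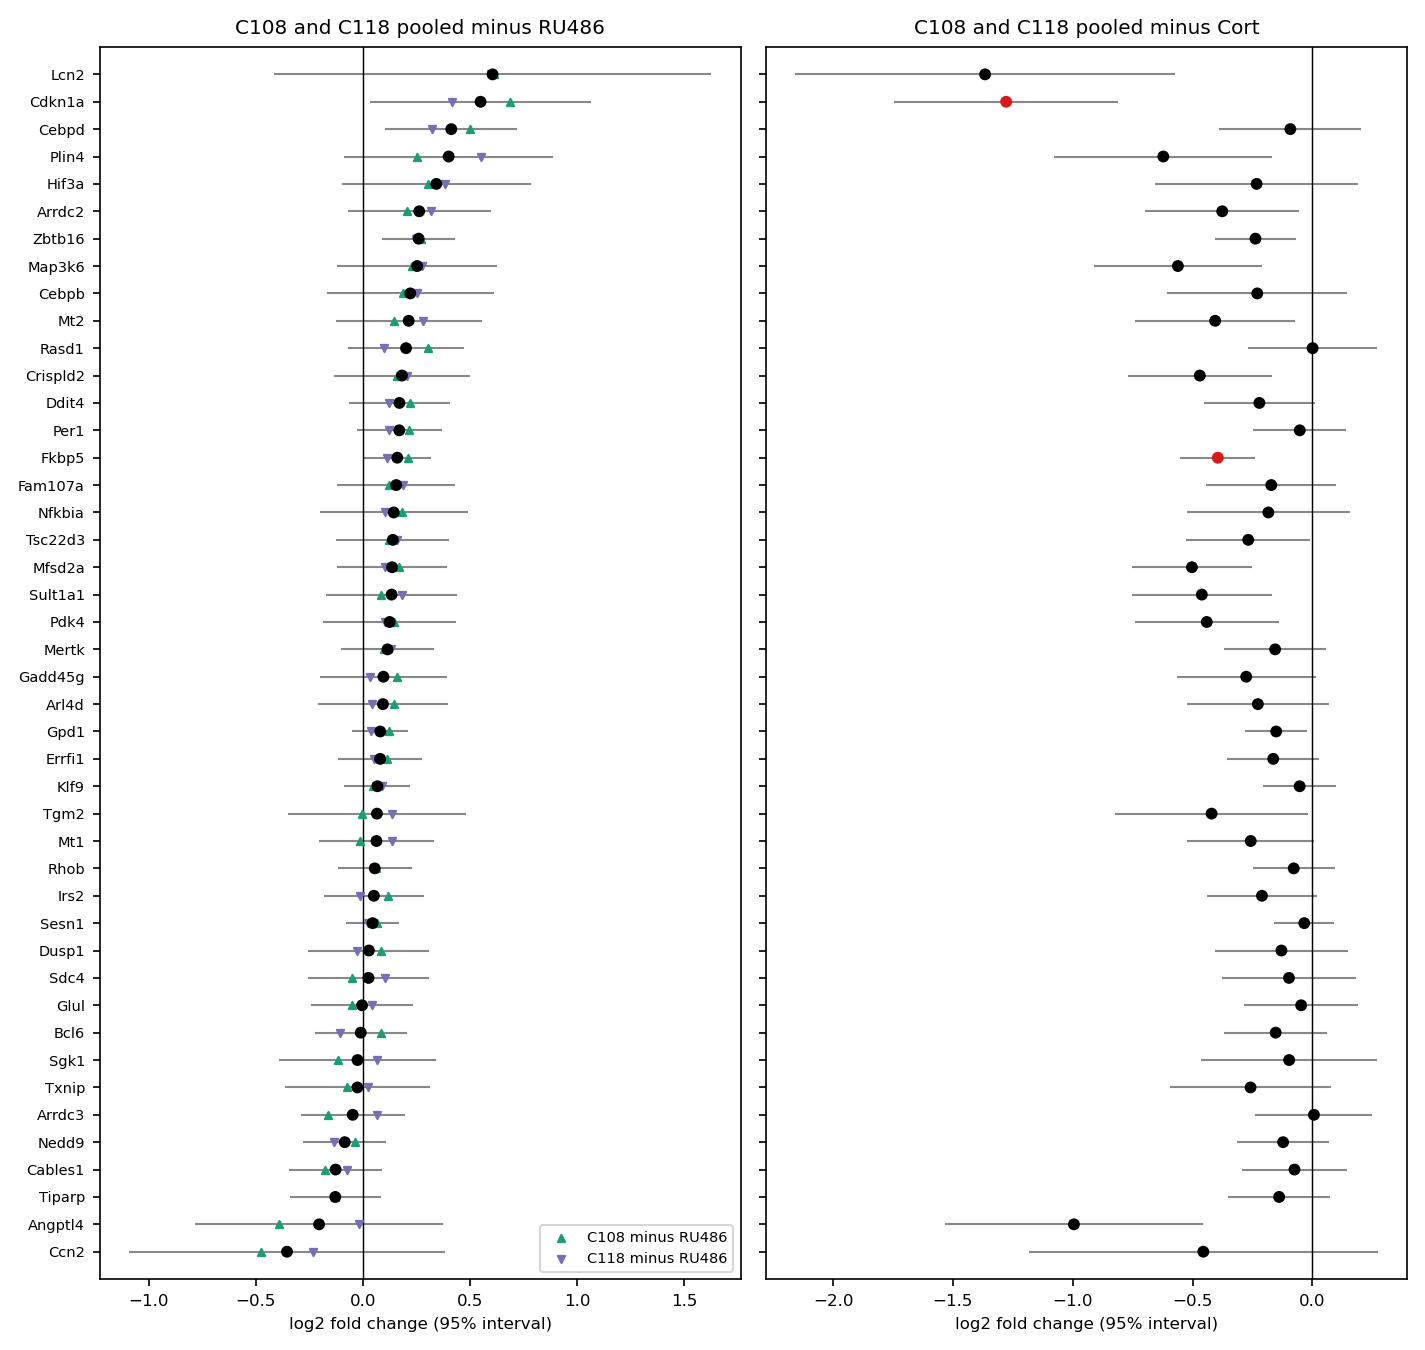
Log2 fold changes of the 44 receptor targets with 95% intervals (black points and grey lines) for C108 and C118 pooled minus RU486 (left, with triangles for each compound) and minus Cort (right, red where the adjusted p was under 0.05). On the left 34 of 44 points lie above 0, and on the right 42 lie below 0.

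Neither compound alone was separated from RU486. C108 was called against RU486 at 0 genes by edgeR (961 had an unadjusted p under 0.05) and C118 at 0 genes (307 did), and DESeq2 and limma-voom called 0 for both. The median log2 difference of the targets was 0.122 for C108, with 32 of 44 higher, and 0.105 for C118, with 36 of 44 higher. Of all genes, 50.1% had a higher mean in C108 and 51.3% in C118. At an unadjusted p under 0.05, 4 targets were higher in C108 (2.61% of all genes were) and 1 in C118 (0.615%). Both comparisons share the RU486 libraries, so the values stand side by side only.

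Among C108, C118 and RU486 there were 3 pairs, and with p-values adjusted over the 3 pairs together 0 genes were called in each. Between C108 and C118 edgeR called 0 genes (0%), while 401 had an unadjusted p under 0.05 (141 higher and 260 lower in C108), limma-voom called 0 and DESeq2 called 1, Rtp4. Of the 44 targets 22 had a higher and 22 a lower mean in C108, with differences from -0.373 to 0.271 and 0 at an unadjusted p under 0.05 in either direction (0.843% of all genes were higher and 1.55% lower at that p). The 95% interval of C108 minus C118 was -0.08 to 0.28 for Fkbp5, -0.30 to 0.85 for Cdkn1a, -0.17 to 0.22 for Zbtb16, -0.34 to 0.27 for Tsc22d3 and -0.85 to 0.25 for Plin4. These intervals bound how far the compounds differed at these targets and do not show that they act alike.

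The genes with the smallest p between the compounds were interferon-stimulated genes, which were highest in 2 C118 libraries. Rtp4, an interferon-induced chaperone of receptor transport (chromosome 16, 23520291 to 23614222), stood at 0.711, 0.712, 0.774, 1.01 and 0.915 CPM in C108, 2.02, 1.22, 4.74, 1.27 and 2.56 CPM in C118 and 0.708 to 1.48 CPM in RU486. C118 20 and 38 were the highest. The log2 difference of C108 minus C118 was -1.51 ± 0.29 (SE, edgeR adjusted p = 0.202). Of 18 tested interferon-stimulated genes 17 had a lower mean in C108 (median -1.166), 12 at an unadjusted p under 0.05 against 1.55% of all genes, and 0 were called. Ifit1 (0.812 to 1.37 CPM in C108 and 0.476 to 8.32 CPM in C118) and Oasl2 (1.47 to 2.08 and 1.8 to 11.7 CPM), both antiviral effectors, showed the same 2 libraries on top. Without C118 20 and 38 the log2 differences of C108 minus C118 were -0.86 for Rtp4, -0.64 for Ifit1 and -0.43 for Oasl2, 13 of the 18 genes had a lower mean in C108 (median -0.28, 3 at an unadjusted p under 0.05), 0 genes were called, and 673 had that p. Without C118 33, the lowest C118 library in the interferon score, the count of genes called between the compounds was 8, and without C118 13 it was 1. Against RU486 all 18 genes had a higher mean in C118 (median 0.751, 8 at an unadjusted p under 0.05, where 0.615% of all genes were). In C108 2 of the 18 had a higher mean (median -0.225), and in the pooled modulators 15 had (median 0.129, 2 at that p against 1.14% of all genes). None was called, and these counts were not computed without C118 20 and 38.

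The differences from RU486 with the smallest p included many genes of the choroid plexus, the epithelium that secretes cerebrospinal fluid. All 20 genes with the smallest p had lower means in the modulators, led by Pon3, a lactonase (chromosome 6, 5220852 to 5256286), at 10, 2.76, 2.13, 6.07 and 2.53 CPM in RU486 and 1.32 to 2.68 CPM in the modulators. RU486 6 and 25 stood highest, RU486 12 lay just above the modulators and the other 2 RU486 libraries overlapped them. The log2 difference was -1.25 ± 0.26 (SE, edgeR adjusted p = 0.33), and -0.34 without RU486 6 and 25 (adjusted p = 0.936). Among the 20 were 7 of the choroid plexus list, the water channel gene Aqp1, the potassium channel subunit gene Kcne2, the tight junction gene Cldn2, the bicarbonate transporter gene Slc4a5, Tmem72, the lipid enzyme gene Enpp2 and the secreted inhibitor gene Sostdc1.

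All 14 choroid plexus markers had a lower mean in the modulators at an unadjusted p under 0.05, where 2.2% of all genes did, and 0 were called (median log2 difference -3.019). Ttr, the thyroxine carrier transthyretin and the defining transcript of this epithelium, chosen after its values were seen, stood at 3940, 50, 48.5, 2450 and 70.7 CPM in RU486 and from 7.88 to 420 CPM in the modulators (median 34.2). The choroid plexus score was 4.133 and 3.215 in RU486 6 and 25, -1.012 to -0.16 in the other 3 RU486 libraries and -2.039 to 1.273 in the modulators. Without RU486 6 and 25, 11 of the 14 markers had a higher mean in the modulators (median 0.298, 0 at an unadjusted p under 0.05), 8 of the 20 genes had a higher mean in the modulators, 12 had a lower one, and 0 genes were called (716 at an unadjusted p under 0.05). Mid1, a microtubule-bound ubiquitin ligase, was among the 20 and stood at 12.2 CPM in RU486 12 against 2.23 to 3.27 CPM in the other RU486 libraries. Of the 5 RU486 libraries 3 lay above all 10 modulator libraries. Its log2 difference ranged from -1.1 to -0.201 without single libraries. Vegfc, a vascular growth factor gene, was also among the 20 (-0.59 ± 0.16, SE, edgeR adjusted p = 0.805). For Vegfc the log2 difference from RU486 was -0.659 to -0.491 over 28 alternatives, among them the one without RU486 6 and 25. It was called in 0 of them. Among genes of at least 1 CPM, Vegfc had the smallest p of C118 against RU486 (-0.85 ± 0.20, SE), where 0 genes were called.

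The transcripts of the hormone receptors overlapped between the groups. Nr3c1 stood at 72.5 to 98.6 CPM in RU486 and 76.8 to 101 CPM in the modulators (log2 difference -0.04 ± 0.07, SE), the mineralocorticoid receptor gene Nr3c2 at 259 to 321 against 282 to 373 CPM (0.10 ± 0.11, SE) and the progesterone receptor gene Pgr at 10.1 to 14.2 against 12 to 17.7 CPM (0.09 ± 0.12, SE). The intervals were -0.19 to 0.11, -0.13 to 0.32 and -0.15 to 0.33, so each bounds a difference to under 0.4 log2 units. Hsd11b1, the enzyme that regenerates corticosterone within cells, ranged from 36.3 to 55.4 CPM in RU486 and from 30.2 to 52.3 CPM in the modulators (-0.17 ± 0.12, SE). Of 13 tested steroid receptor and hormone handling genes 4 had a higher and 9 a lower mean, and 0 were called. The 1 with an unadjusted p under 0.05, where 2.2% of all genes were lower, was Crhr2, the receptor 2 gene of corticotropin-releasing hormone. Crhr2 was picked out after its values were seen (-0.92 ± 0.29, SE, edgeR adjusted p = 0.887, and -0.18 without RU486 6 and 25). Of 18 receptor chaperones and cofactors 16 had a higher mean (median 0.06), where 50.2% of all genes did. Of these 18, 0 had an unadjusted p under 0.05, and all 18 intervals lay within 0.5 log2 units.

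Dbp, a circadian output transcription factor (chromosome 7, 45705088 to 45710203), differed in the other direction from the targets. It stood at 41.5, 36.7, 31.3, 39.8 and 49.8 CPM in RU486, at 29.6, 26.2, 31.8, 33.3 and 27.7 CPM in C108, at 30.9, 46.3, 40.7, 33.6 and 34.3 CPM in C118 and at 24.1, 33.4, 20.5, 19.9 and 21.7 CPM in Cort. C108 lay in the lower part of the RU486 range or below it, and C118 overlapped the RU486 libraries. The log2 difference of the pooled modulators from RU486 was -0.26 ± 0.12 (SE, edgeR adjusted p = 0.998), and from Cort 0.47 ± 0.12 (SE, adjusted p = 0.264). Of 20 clock genes 7 had a higher and 13 a lower mean than in RU486, where 50.2% of all genes had a higher one. Of these 20, 0 were called. Dbp was the 1 with an unadjusted p under 0.05, where 2.2% of all genes were lower at that p.

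Activity-regulated genes overlapped between the groups. Fos ranged from 3.7 to 14.7 CPM in RU486 and 4.54 to 13.7 CPM in the modulators, Arc from 60.6 to 136 and 73.2 to 184 CPM, Npas4 from 1.67 to 6.65 and 2.95 to 9.33 CPM, and the neurotrophin gene Bdnf from 39.6 to 58.1 and 39.6 to 56.8 CPM. Of 30 immediate early genes 18 had a higher mean (60%, against 50.2% of all genes, median 0.019). Of these 30, 0 were called and 0 had an unadjusted p under 0.05 in either direction. Of 20 ionotropic glutamate receptor genes 17 had a higher mean (median 0.063), and of 12 GABA-A receptor subunits 7 had (median 0.026). At an unadjusted p under 0.05, 1 glutamate receptor gene and 0 GABA-A subunits were higher, as were 1.14% of all genes.

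Genes that changed from Basal to Vehicle gave a list from libraries outside the comparison. There edgeR called 274 genes higher and 414 lower in Vehicle, and both lists were then read in the modulators against RU486. Of the 274 that rose, 140 had a higher mean under the modulators than under RU486 (median 0.003), 5 higher and 5 lower at an unadjusted p under 0.05, where 1.14% of all genes were higher and 2.2% lower. Of the 414 that fell, 257 (62.1%, against 50.2% of all genes) had a higher mean (median 0.046), 20 higher and 11 lower at that p. Against Cort, 174 of the 274 had a lower mean (median -0.065), 78 at that p (3.6% of all genes), and 7 of the 8 genes called lower than in Cort were among them. The score of the 274 genes ranged from -0.127 to 0.066 in RU486, from -0.142 to 0.133 in the modulators and from 0.039 to 0.221 in Cort.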

How the data were processed

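RNA from snap-frozen dorsal hippocampus was enriched for mRNA and sequenced as stranded paired-end libraries, per the labels' protocols. The deposited table holds raw read counts for 50686 genes in 28 libraries of 6 groups. Counting with HTSeq 0.6.1 and the build mm10 are named in the submitters' processing notes; no source used here names the aligner or the annotation. The 5 summary lines, 12.63 to 19.5% of the reads in the 15 libraries compared, were left out. Symbols came from a reference list matched by gene identifier, and positions from GENCODE M21 on GRCm38 for 50462 genes.

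Counts were fitted in R 4.3.3 with edgeR 4.0.16 (TMM scaling, robust quasi-likelihood test, filterByExpr with 10 as the minimum count and 15 as the minimum total), all 28 libraries in 1 model, which left 16735 genes and 22 residual degrees of freedom. The pooled contrast was the mean of the C108 and C118 group means minus RU486. Tests were two-sided, with Benjamini-Hochberg adjustment over all tested genes and a threshold of 0.05 on the adjusted p. SEs and 95% intervals came from the same fit. Scores used a prior count of 2. On simulated counts for the pooled comparison with RU486 (16735 genes), the test called 91 of 100 genes changed 1.5-fold and 97 of 100 changed 2-fold, with 3 false calls. The simulation changed only genes above a minimum mean CPM, by the same fold in C108 and C118. Its noise was drawn independently for each gene, without variation shared between genes, such as that of the choroid plexus genes. These rates therefore need not hold for the real counts. Alternatives were RLE scaling, no filter, a minimum count of 30, DESeq2 1.42.0, limma-voom (limma 3.58.1), only the groups compared, covariates, a block by runs of sample numbers, another prior count and left-out libraries.

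Named genes were the 20 with the smallest p at 1 CPM or more against RU486 (used because under 10 genes passed), up to 5 per direction or the 5 smallest p in other comparisons, up to 4 called members of each list, and 22 always named; other genes are list markers or are marked as chosen after their values were seen. Of the genes so named, many with a known role are described and some are left out. The comparison, its members and the gene lists were chosen with earlier results of these data known.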

Additional observations from a re-analysis of the deposited data

Results flagged for a closer look

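Of 244 sets of 5 libraries, 20 held 1 library far from the other 4. Chance alone would give about 1 in 20 such sets if they were independent and normally spread. Many of these sets are coexpressed genes in the same libraries, so the count cannot be judged against that rate. C118 13 stood above the other C118 libraries in choroid plexus genes and their neighbours in the ranking. Its choroid plexus score was 1.273, against -1.27 to -0.774 in the others. It stood at 4.23 CPM for Abca4, 2.78 for Aqp1, 2.78 for Cldn2, 1.45 for Col8a1 and 517 for Enpp2. It also stood at 2.43 CPM for Kcne2, 1.85 for Lepr, 3.65 for Slc4a5, 4.57 for Sostdc1 and 3.7 for Tmem72. C108 21 stood above the other C108 libraries in the same class of genes, at 1.86 CPM for Cldn2, 2.03 for Kcne2 and 1.92 for Slc4a5.

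RU486 12 stood at 12.2 CPM for Mid1, against 2.23 to 3.27 in the other RU486 libraries, and at 1.67 CPM for the activity-regulated gene Npas4, against 5.22 to 6.65. The progesterone receptor gene Pgr was at 17.7 CPM in C118 7 (12 to 13.6 in the other C118 libraries) and at 10.1 CPM in RU486 19 (13.2 to 14.2 in the other RU486 libraries). RU486 19 had an interferon score of -0.238, against -0.027 to 0.053 in the rest of its group. The unannotated gene Gm44250 was at 7.42 CPM in Cort 4, against 2.8 to 3.95 in the other Cort libraries.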

How the results depend on the processing

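No label pairs the libraries: every library has its own number, the groups share none and no label names a shared set. Read from where the order of the groups starts again, the numbers run in 6 sets. A block by these sets, chosen after seeing the data, gave 0 called genes against RU486, 0 between C108 and C118, 23 against Cort and 1759 in Vehicle against Basal. Against RU486 the pooled modulators had 0 called genes under all 28 alternatives (417 to 1262 genes at an unadjusted p under 0.05). The target score difference of 0.105 ranged from 0.052 to 0.135 without single libraries and was 0.045 without both RU486 6 and 25, an alternative chosen after seeing the data.

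The 8 genes called against Cort became 4 with no filter, 21 with DESeq2, 12 with only the groups compared, 15 with only those groups and 1 common mean for both compounds, 1 with the choroid plexus score as a covariate, and 0 with thalamus and neocortex scores or without both C118 20 and 38; leaving out 1 library gave 0 to 14. Adjusted p values of Cdkn1a ranged from 0.00178 to 0.504 over these alternatives and those of Fkbp5 from 0.00219 to 0.338. Between C108 and C118 the count was 1 with DESeq2 and 0 to 8 without 1 library. The 688 genes of Vehicle against Basal became 355 with only these groups, 1070 with sample number as a covariate, and 346 to 940 without 1 library, with 382 without Basal 1, 346 without Basal 14 and 384 without Basal 27. The cause was not tested.

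Of the named log2 differences from RU486, 14 changed sign and none of the 42 was called in any alternative. With the choroid plexus score as a covariate the signs turned for Cldn2 (0.00244), Col8a1 (0.0633), Slc4a5 (0.136), Tmem72 (0.33) and Nr3c1 (0.0343). Without both RU486 6 and 25 they turned for Cldn2 (0.37), Col8a1 (0.613), Slc4a5 (0.331), Tmem72 (0.691), Nr3c1 (0.0321), Enpp2 (0.0192), Kcne2 (0.0738), Lepr (0.0977), Sostdc1 (0.0246), Npas4 (0.0294) and Mt1 (-0.0542). Sgk1 turned to 0.0103 with sample number, 0.0129 with thalamus and neocortex scores, 0.0105 without C108 26, 0.0162 without C108 34, 0.0153 without RU486 6 and 0.0628 without RU486 32; without single libraries it ranged from -0.116 to 0.0628. Arc turned to -0.0867 without C108 26, -0.00216 without C118 38, -0.123 without RU486 12, -0.0194 without RU486 32 and -0.0109 without both C118 20 and 38, and ranged from -0.123 to 0.126 without single libraries. Bdnf turned to 0.00855 without RU486 19 and 0.00532 without RU486 32 (lowest -0.119), and Npas4 to 0.0304 without RU486 19 (lowest -0.324). Genes near 1 CPM, such as Rtp4 and Crhr2, have wide intervals at these depths.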

Other observations

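Most markers of several other cell types and tissues had lower means in the pooled modulators than in RU486, where 49.8% of all genes did. No gene among them was called (edgeR). Of 19 myelin genes 17 had a lower mean (median log2 difference -0.161), of 16 endothelial genes 15 (median -0.236) and of 6 blood genes 6 (median -0.434). Each of these lists held 1 gene lower at an unadjusted p under 0.05, as were 2.2% of all genes. Of 17 thalamus markers 14 had a lower mean (median -0.287), of 15 astrocyte markers 14 (median -0.05) and of 14 microglia markers 11 (median -0.055). Of 11 meningeal fibroblast markers 8 had a lower mean (median -0.259, 2 at that p). Other lists were mixed, with 5 higher and 7 lower for pericytes and smooth muscle, and 12 higher and 8 lower for neocortex. Of 13 mitochondrially encoded genes 11 had a lower mean (median -0.131). Of 12 neuronal genes 10 had a higher mean (median 0.065), where 50.2% of all genes did. Of 16 heat shock and ER chaperones 11 had a lower mean (median -0.037), 0 of them at an unadjusted p under 0.05.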
